A study of Mus musculus with 2 samples.

Results

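The Fanconi anemia and homologous recombination genes are a set of 35 repair genes, given here by name and not by any measured value. All 35 were found by symbol among the 21461 nuclear protein-coding genes of the tables. They were measured in total RNA from megakaryocyte-erythroid progenitors (MEP), bone marrow cells that give rise to red cells and platelets, here from male mice of the C57BL/6J strain at an age of 5 to 6 weeks. The series holds 1 group of 2 libraries, biological replicates 1 and 2, each made by ScriptSeq from 100 ng of RNA after ribosomal RNA was taken out. The labelled size range was 200 to 1000 for replicate 1 and 215 to 1000 for replicate 2. Its part in differences between the libraries was not tested. No allele, treatment or second cell type is labelled. Both biosamples name the same donor, so the libraries may share their mice and the spread between them may be technical. With no second group, the questions that the data can answer are how high each repair gene was, how partners in 1 complex stood to each other, and how far the libraries differed.

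Fanconi anemia is an inherited bone marrow failure, and its genes repair crosslinks that tie the strands of DNA together. A core complex with the ubiquitin ligase FANCL and the conjugating enzyme UBE2T marks the FANCI-FANCD2 pair with ubiquitin, USP1 removes the mark, and nucleases held by SLX4 cut the crosslink out. The break that results is repaired from the sister chromatid: the MRN complex (MRE11, RAD50, NBN) resects the end, BRCA1, PALB2 and BRCA2 load a protein filament on the strand, further filament factors steady it, and the kinases ATM, ATR, CHK1 and CHK2 signal the damage. Blood progenitors that divide often are known to depend on these genes.

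The libraries held 39919884 and 48043010 expected counts. The 7 erythroid markers had a summed TPM (a level scaled by gene length and by the sum over all genes) of 1372 and 1324. All 7 were at a TPM of 1 or more in both libraries. Car1, at 723 and 708, and Car2, at 449 and 427, carried most of this sum. Gata1 was at 35.8 and 31.3 and Epor at 8.38 and 9.39. The sums for markers of other cells were lower and differed between the libraries. The summed TPM was 45.3 in replicate 1 and 18.2 in replicate 2 for 5 megakaryocyte genes, 65.2 and 15.8 for 5 stem cell genes, and 71.4 and 129.7 for 6 granulocyte genes. The lymphoid sums were 7.01 and 15.1 (7 genes), the macrophage sums 0.90 and 1.4 (4 genes) and the mast cell sums 7.66 and 1.71 (3 genes). A few genes carried these sums and others went the other way. Pf4, at 23.5 and 8.71, and Itga2b, at 19.6 and 5.70, carried the megakaryocyte sum, while Vwf was at 1.44 and 2.01 and Gp9 at 0.43 and 1.65. Angpt1, at 43.9 and 11.97, and Cd34, at 18.3 and 1.44, carried the stem cell sum, and Mecom was at 1.74 and 1.89. S100a8, at 30.7 and 68.2, led the granulocyte sum, while Mpo was at 8.53 and 1.64 and Elane at 0.39 and 0.05. Cd3e, Cd8a and Ms4a1 of the lymphoid list, Adgre1, C1qa and C1qb of the macrophage list, Ly6a and Mcpt8 were at 0 counts in both. The part of these markers in the differences between libraries given below was not tested. In bulk RNA, fewer cells of a type and less RNA per cell cannot be told apart.

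At their start sites, a larger share of the repair genes than of all genes faced another gene. A start of another protein-coding gene on the opposite strand lay within 1 kb for 13 of the 35 (37.1%), against 10.9% of the 21461 protein-coding genes and 19.9% of the 8452 that reached a TPM of 1 in both libraries. Brca1 faced the autophagy receptor gene Nbr1 across 194 bases, Atm faced Npat, a histone gene activator, across 307, Chek2 faced Hscb across 202, and Fancb faced Mospd2 across 217. The other 9 were Fancf, Fancd2, Palb2, Rad51b, Rad51c, Xrcc3, Rad51ap1, Rad54l and Mre11a, of which Fancf and Mre11a overlap their neighbour at the start. The letters CCAAT, read on either strand, were in the promoter window of 20 of the 29 members that have one in the RefSeq table (69.0%), from 250 bases before to 50 after the start, against 39.0% of all 17492 windows and 39.9% of those of expressed genes. Of 12 members with a facing gene 11 held them, and of the 17 others 9 did. That split was not computed over all genes, so neither it nor the 69.0% is set against other facing starts.

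The stretches below lie before the RefSeq start (GRCm38.p6) and outside every exon of GENCODE M21, and are read along the strand of the repair gene. The first 3 are the whole gaps between a repair gene and its facing neighbour. Xrcc3 and Ube2t are shown for the number of CCAAT letters, at 6 and 3 (Brip1, not shown, also holds 3). Capitals mark CCAAT or its reverse complement ATTGG.
Brca1 (chr11:101551956-101552148, minus strand): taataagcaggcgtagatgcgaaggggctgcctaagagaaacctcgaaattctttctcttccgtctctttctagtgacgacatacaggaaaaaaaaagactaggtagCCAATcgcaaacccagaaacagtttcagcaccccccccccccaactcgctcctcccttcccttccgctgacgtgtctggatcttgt
Fancb (chrX:164980376-164980591, plus strand): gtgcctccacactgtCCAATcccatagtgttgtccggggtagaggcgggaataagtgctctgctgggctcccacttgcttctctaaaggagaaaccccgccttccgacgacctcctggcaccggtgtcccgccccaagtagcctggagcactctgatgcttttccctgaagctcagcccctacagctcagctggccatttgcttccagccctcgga
Chek2 (chr5:110839778-110839978, plus strand): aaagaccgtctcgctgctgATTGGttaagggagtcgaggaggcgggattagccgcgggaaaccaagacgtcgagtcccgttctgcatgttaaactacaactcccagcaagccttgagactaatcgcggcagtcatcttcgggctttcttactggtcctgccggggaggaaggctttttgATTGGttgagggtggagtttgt
Xrcc3 (chr12:111813880-111814129, minus strand): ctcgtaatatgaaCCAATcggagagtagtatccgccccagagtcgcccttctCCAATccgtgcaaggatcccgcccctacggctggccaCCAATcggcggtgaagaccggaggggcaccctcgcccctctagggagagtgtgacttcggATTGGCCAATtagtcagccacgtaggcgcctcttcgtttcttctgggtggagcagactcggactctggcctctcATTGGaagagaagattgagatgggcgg
Ube2t (chr1:134962315-134962564, plus strand): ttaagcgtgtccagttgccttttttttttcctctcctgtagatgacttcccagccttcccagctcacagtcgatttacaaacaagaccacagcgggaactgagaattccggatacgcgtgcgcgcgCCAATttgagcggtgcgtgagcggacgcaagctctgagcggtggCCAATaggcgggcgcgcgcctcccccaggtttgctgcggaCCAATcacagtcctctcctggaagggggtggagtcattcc

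E2F factors switch on genes of DNA replication. Their site, searched as TTTCCCGC, TTTCGCGC, TTTGCCGC and TTTGGCGC on both strands, where a match may overlap other motifs, was in 5 of 29 windows (17.2%), against 2.92% of all windows and 4.84% of those of expressed genes. The 5 were Bard1, Fancg, Chek2, Brca2 and Rad51c. Among members with a window, 2 of the 10 known to vary with the cell cycle (listed below) held it, and 3 of the 19 others. Brca2 is shown as an example whose site stands clear of exons (the stretches of Bard1 and Chek2 also hold one), with the site, here as the reverse complement of TTTCCCGC, in capitals.
Brca2 (chr5:150522371-150522620, plus strand): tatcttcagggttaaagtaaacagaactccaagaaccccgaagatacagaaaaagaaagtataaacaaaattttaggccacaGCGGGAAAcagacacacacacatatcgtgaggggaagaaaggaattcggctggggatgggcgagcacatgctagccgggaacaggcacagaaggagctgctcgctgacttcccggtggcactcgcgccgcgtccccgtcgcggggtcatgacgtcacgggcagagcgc
The GC box GGGCGG was in 17 of 29 windows (58.6%), between the 46.3% of all windows and the 67.3% of expressed genes. GATAAG, the site of the erythroid GATA factors, was in 2 (6.90%), against 6.88% of all windows and 4.64% of those of expressed genes. TTTGAA, the cell cycle homology letters, was in 1 (3.45%), against 16.5% and 12.4%. These counts were made after levels were known and describe letters only.

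**Figure D1:**
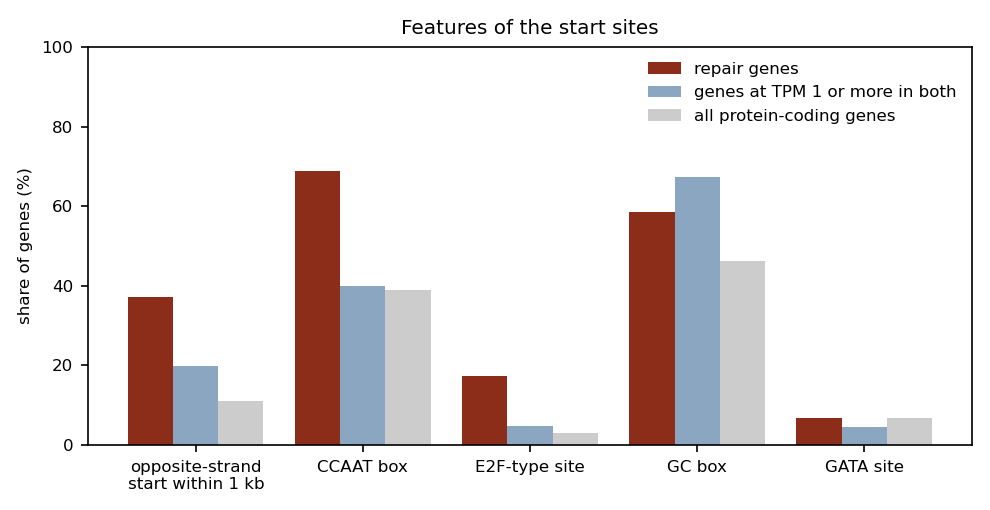
Share of genes (%) with each start site feature, for the repair genes, for genes at a TPM of 1 or more in both libraries, and for all protein-coding genes. The first group counts 35, 8452 and 21461 genes and the motif groups count 29, 6804 and 17492 windows. Repair genes stand above both backgrounds for facing starts (37.1%), CCAAT (69.0%) and the E2F-type site (17.2%), while the GC box (58.6%) lies between them.

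RNA of nearly the whole pathway was measured in these progenitors, mostly at moderate levels. In both libraries 34 of the 35 genes were at a TPM of 1 or more, as were 39.4% of all protein-coding genes. The exception was Rad51c. The median over the members was 6.87 TPM (7.64 in replicate 1 and 6.63 in replicate 2, SD 0.714), against 0.2 for all protein-coding genes and 8.13 for those that reached a TPM of 1 in both. Among the expressed genes the members lay from percentile 2.32 for Rad51c to 88.5 for Usp1. Of the 34 steps between neighbours in the order, only 3 had the authors' TPM intervals apart in both libraries. These were Usp1 over Chek1, Fancl over Blm and Fancm over Xrcc2.

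**Figure D2:**
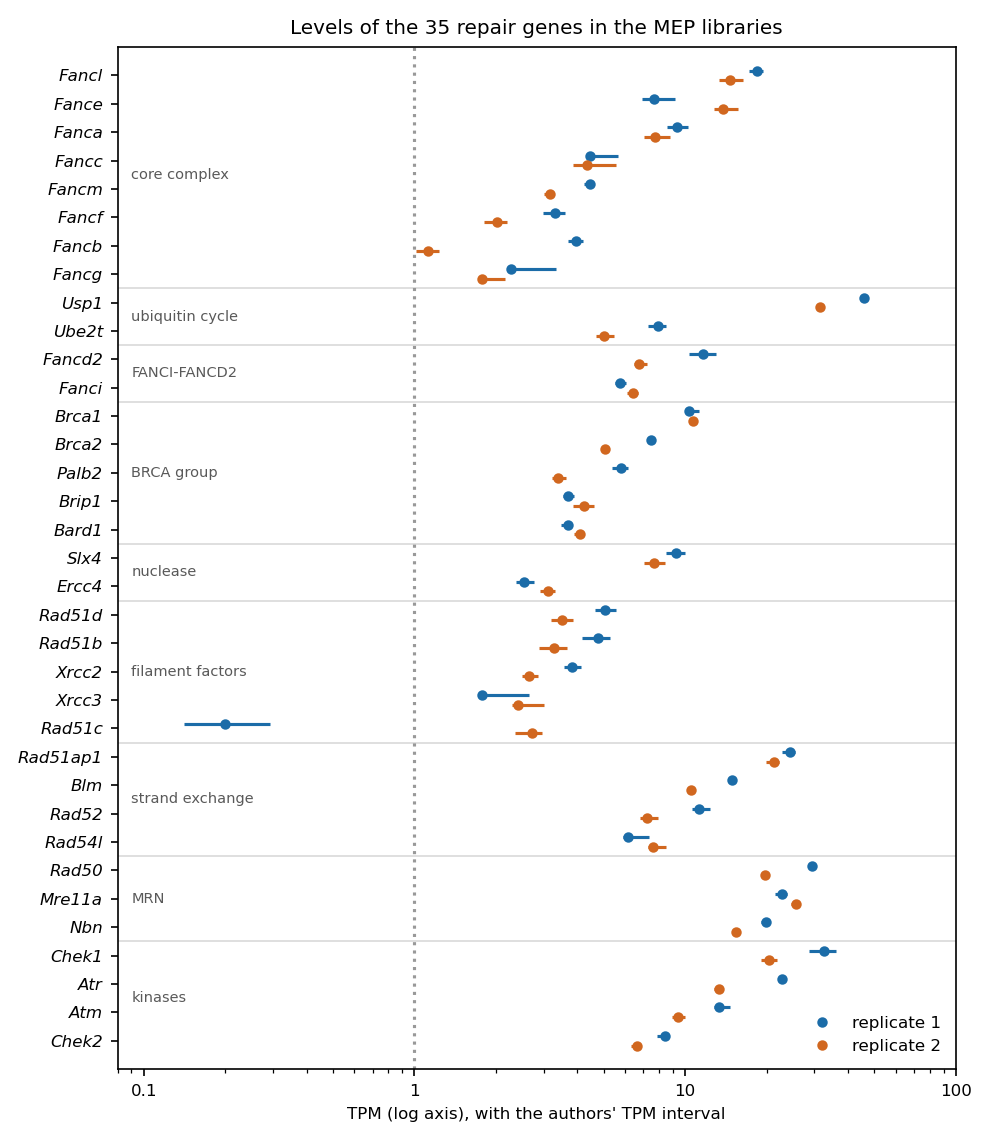
TPM of the 35 repair genes on a log axis, grouped by role, with 1 point per library and the authors' TPM interval as a bar (its level is not stated). The replicate 1 points of Fancc and Xrcc3 lie just below their bars. Rad51c in replicate 1, at 0.20, is the only point left of the dotted line at a TPM of 1.

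In the Fanconi core complex the catalytic subunit had the highest mean level. Fancl, the ubiquitin ligase, was at 18.4 TPM in replicate 1 and 14.7 in replicate 2, and values below are given in that order. Fanca, a large scaffold subunit, was at 9.29 and 7.76, and its partner Fancg at 2.27 and 1.78. On the log2 TPM scale Fanca exceeded Fancg by 2.08 ± 0.064 (SD, n = 2). Fancb, which binds FANCL directly, was at 3.94 and 1.12, and its log2 ratio over Fancl was -2.22 and -3.71. Fancc was at 4.46 and 4.35, Fancf, an adaptor subunit, at 3.31 and 2.02, and Fancm, the translocase that anchors the complex on DNA, at 4.46 and 3.16. Fance, which contacts FANCD2, was at 7.64 and 13.84, and was the only core gene with a higher TPM in replicate 2. The median of the 8 core genes was 4.11 TPM.

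Of the enzymes that set and remove the ubiquitin mark, the remover was far higher. Usp1 (chromosome 4, 98923810 to 98935543), the deubiquitinase, was the highest of all 35 at 45.7 and 31.5 TPM, a mean of 38.6 ± 10.05 (SD, n = 2). Ube2t, the conjugating enzyme, was at 7.93 and 5.03. The log2 ratio of Ube2t over Usp1 was -2.59 ± 0.085 (SD, n = 2), with the intervals apart in both libraries. Of the targets of the mark, both well below Usp1, Fancd2 was at 11.6 and 6.75 and Fanci at 5.76 and 6.39. Fancd2 exceeded Fanci in replicate 1 by 1.01 on the log2 scale and in replicate 2 by 0.08, where the intervals overlapped, so no order of the pair was called.

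The BRCA group was led by Brca1. Brca1 (chromosome 11, 101488764 to 101551955, minus strand), a ubiquitin ligase of break repair, was at 10.3 and 10.7 TPM, and its obligate partner Bard1 at 3.69 and 4.07. The log2 ratio of Brca1 over Bard1 was 1.44 ± 0.065 (SD, n = 2), with the intervals apart in both libraries. Brca2, which loads the repair filament, was at 7.48 and 5.04, and Palb2, which links it to BRCA1, at 5.80 and 3.38. Brca2 exceeded Palb2 by 0.47 ± 0.15 (SD, n = 2) on the log2 scale by gene TPM, and by 1.72 and 1.91 when complete coding transcripts alone were used. Brip1, a helicase bound by BRCA1, was at 3.68 and 4.21.

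The 5 filament factors Rad51b, Rad51c, Rad51d, Xrcc2 and Xrcc3 had the lowest median of the groups, 3.23 TPM, and the strand exchange genes were higher, at 10.97. Rad51d was at 5.06 and 3.50, Rad51b at 4.75 and 3.28, Xrcc2 at 3.81 and 2.64 and Xrcc3 at 1.78 and 2.42. Rad51ap1, which stimulates strand exchange, was at 24.3 and 21.2, the helicase Blm at 14.9 and 10.5, Rad52 at 11.3 and 7.21 and the motor Rad54l at 6.15 and 7.58. Of the nuclease genes, the scaffold Slx4 was at 9.27 and 7.68 and Ercc4, the XPF nuclease, at 2.53 and 3.10.

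The end resection genes of MRN had a median of 24.2 TPM (22.8 and 19.7), the 2 ubiquitin enzymes 22.5 (26.8 and 18.3) and the kinases 14.7. MRN was above the ubiquitin enzymes in replicate 2 and below them in replicate 1. Rad50 was at 29.4 and 19.7, Mre11a at 22.8 and 25.6 and Nbn at 19.8 and 15.4. Rad50 was above Mre11a in replicate 1 and below it in replicate 2. Atr, the kinase of stalled forks, was at 22.8 and 13.3 and exceeded Atm, the kinase of double-strand breaks, which was at 13.4 and 9.40. By gene TPM, Chek1, the kinase downstream of ATR, was at 32.7 and 20.4, ranking 2 of 35 in replicate 1 and 4 in replicate 2, and Chek2 was at 8.39 and 6.63.

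Members known to vary with the cell cycle, most of them with S phase, had a higher median than the rest in both libraries. These 12 genes (Brca1, Brca2, Bard1, Brip1, Fancd2, Fanci, Ube2t, Usp1, Rad51ap1, Rad54l, Blm and Chek1) had a median of 8.02 TPM and the other 23 had 4.59. The difference of the medians of log2(TPM + 1) was 0.56 in replicate 1 and 0.61 in replicate 2 (SD 0.031).

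Related genes outside the set show where it stands. Of 15 other Fanconi genes, 14 were at 1 TPM or more in each library, with a median of 5.20. Cenpx, Rfwd3 and Rev1 were highest at means of 23.5, 13.3 and 11.6, and Mad2l2, Fan1 and Slx1b lowest at 1.95, 1.80 and 0.705. All 30 other recombination genes reached a TPM of 1 in each library, with a median of 14.2, from Swi5 at 120.3, Topbp1 at 54.99 and Rpa1 at 41.4 to Gen1, Atrip and Rmi2 at 4.60, 3.58 and 1.24. Of 12 genes of meiotic recombination only Psmc3ip and Mnd1, at means of 14.6 and 9.99, reached a TPM of 1 in both. These 2 proteins form 1 complex that assists strand exchange. Msh5 followed at 0.655, while Hormad1, Msh4, Sycp1, Sycp3 and Tex11 were at 0 counts in both libraries. Of 11 end-joining genes 9 were at 1 TPM or more in each library, with a median of 4.13. Xrcc6 (Ku70), Rif1 and Xrcc5 (Ku80) led at 111.04, 40.6 and 18.4, and Nhej1, Shld1 and Lig4 (the ligase of this pathway) were lowest at 1.57, 1.38 and 0.615. The 16 proliferation genes had a median of 47.8, led by Pcna, Mcm6 and Top2a at 176, 118 and 114, with Rrm2, Ccne1 and Mcm4 lowest at 31.8, 30.9 and 30.7.

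The transcript tables gave another picture for several members. Here a complete coding transcript is one that the annotation calls protein-coding with both ends of its reading frame. Fragments, retained introns and transcripts marked for nonsense-mediated decay (RNA with an early stop that the cell degrades) are counted apart. Among the 29 members with a TPM of 1 in both libraries and more than 1 transcript, complete coding transcripts held under 50% of TPM in 6 (20.7%), against 19.7% of 6363 such genes. Their median share was 74.5%, against 83.9%. The count was near the background, and what follows is about single genes. The split is an estimate from short reads, and short transcripts take a high TPM from few counts.

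**Figure D3:**
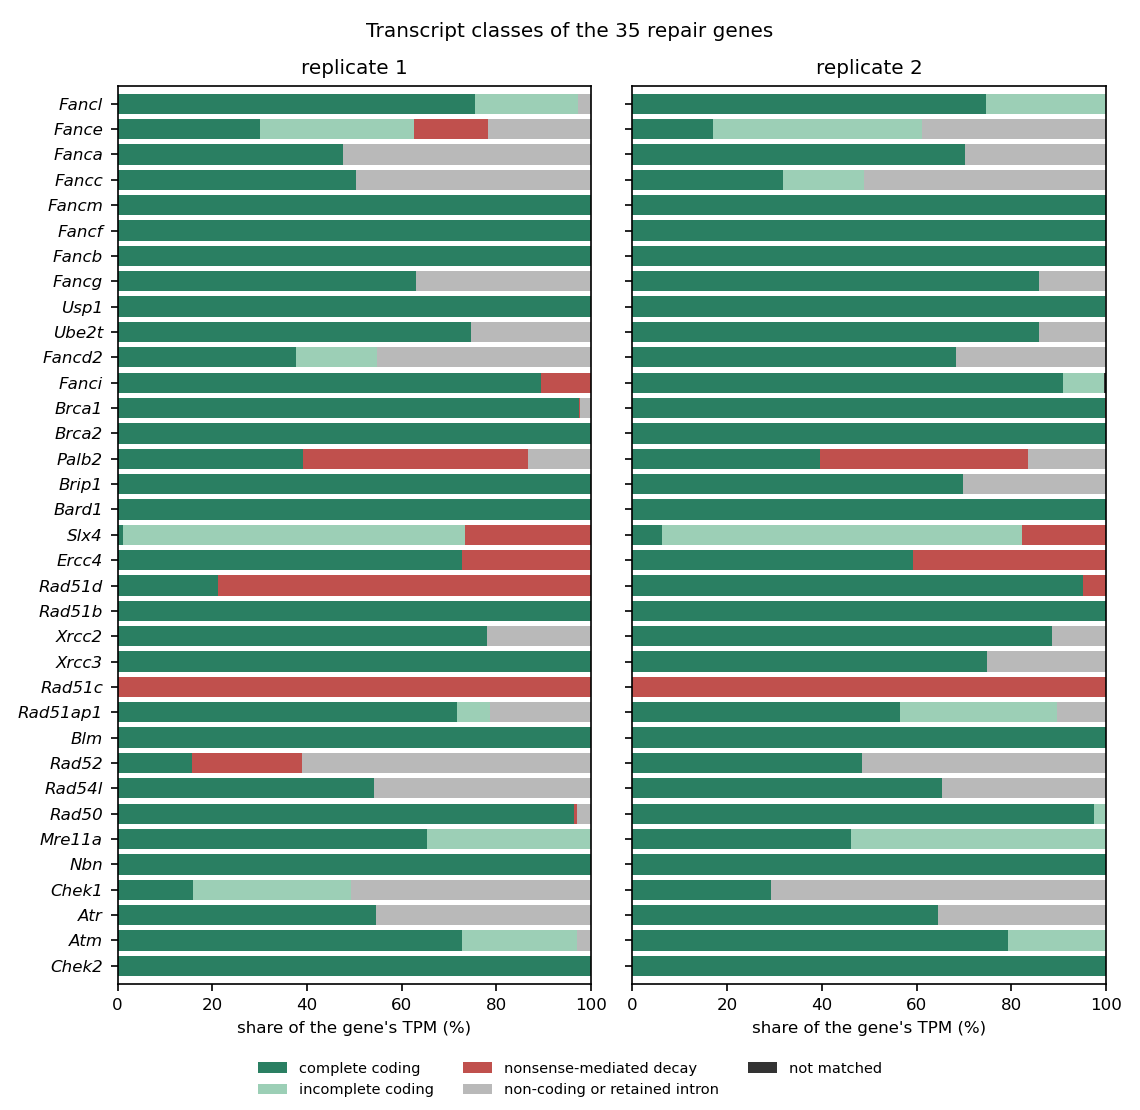
Share of each repair gene's TPM (%) held by the classes of its transcripts, replicate 1 on the left and replicate 2 on the right. Rad51c has only transcripts marked for decay in both libraries, Chek1 and Slx4 have small complete coding shares in both, and Rad51d has 21.1% in replicate 1 and 95.2% in replicate 2.

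Rad51c (ENSMUSG00000007646.9, chromosome 11, 87376645 to 87404954, minus strand), a filament factor, had no count on a complete coding transcript. It had 33 counts in replicate 1 and 444 in replicate 2, at 0.20 and 2.72 TPM. Its 2 complete coding transcripts took 0 of the 33 and 0 of the 444, which allows a share of up to 9.09% and 0.676%, for counting error only, and the authors' upper bounds for them were at most 0.0911 TPM. All counts went to Rad51c-204 and, in replicate 2, Rad51c-203, both marked for nonsense-mediated decay. The facing gene Tex14, which works in germ cells, was at 0 counts in both libraries.

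Chek1 (chromosome 9, 36708482 to 36727065, minus strand) had much of its gene TPM on short models. A retained intron model of 508 bases took 35.9% of its TPM in replicate 1 and 70.8% in replicate 2, from 11.0% and 17.7% of its counts. Complete coding transcripts held 5.23 and 5.94 TPM, with 55.1% and 82.3% of counts. By that measure Chek1 ranked 13 of 35, below Chek2, which has 1 transcript. Slx4 was at 0.10 and 0.48 by complete coding transcripts, with 72.9% and 51.3% of its counts on transcripts marked for decay. Fancd2, at 11.6 and 6.75 by gene TPM, was at 4.36 and 4.61 by complete coding transcripts, and Fance, at 7.64 and 13.84, was at 2.30 and 2.35. Palb2 had 39.1% and 39.6% complete coding TPM and a decay transcript at a like level. The leading Rad52 transcript was a retained intron model in replicate 1 and a coding transcript in replicate 2, and Rad51d had 63.8% of its counts on decay transcripts in replicate 1 and 2.78% in replicate 2.

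Of the 35 members, 16 held over 90% of their counts on complete coding transcripts in both libraries. The 5 members of 1 transcript are among them by annotation alone. The share over all genes was not computed, so the count is not read as a trait of the members. Brca1-201 took 97.5% and 99.8% of TPM, Rad50-201 96.4% and 97.6% and Nbn-201 100%. The order by complete coding TPM began with Usp1 at 38.6 ± 10.1, Rad50 at 23.8 ± 6.48, Nbn at 17.6 ± 3.11, Rad51ap1 at 14.7 ± 3.85 and Mre11a at 13.4 ± 2.15 (SD, n = 2). The same transcript led in both libraries for 22 of the 29 members with more than 1 transcript, against 72.6% of such genes. It differed for Fancc, Palb2, Rad51d, Rad51ap1, Rad52, Rad54l and Mre11a. With the 5 members of 1 transcript the count was 27 of 34.

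Partner ratios depended on this choice. By gene TPM, 14 of 18 pairs had 1 sign and intervals apart in both libraries. The share among other pairs of genes was not computed, so the 14 are not read as a trait of partners. By complete coding TPM only signs were compared, without intervals. There, 9 of the 14 kept their sign in both, 3 turned in both, and 2 gave opposite signs. The 3 that turned were Chek1 over Chek2, from 1.79 ± 0.24 to -0.68 and -0.16, Nbn over Mre11a, from -0.47 ± 0.38 to 0.41 and 0.38, and Slx4 over Ercc4, from 1.59 ± 0.40 to -4.20 and -1.94 (log2 ratios, SD, n = 2). The 2 with opposite signs were Fance over Fancf and Rad51d over Xrcc2. Brca1 over Bard1, at 1.45 and 1.39, Ube2t over Usp1, at -2.95 and -2.86, and Fanca over Fancg, at 1.63 and 1.84, kept theirs. Rad50 over Mre11a, with opposite signs by gene TPM, was positive in both libraries, at 0.93 and 0.70, and Fancd2 over Fanci was negative in both, at -0.24 and -0.33. With 2 libraries an exact sign test, two-sided, cannot give a p below 0.5, so none was run.

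**Figure D4:**
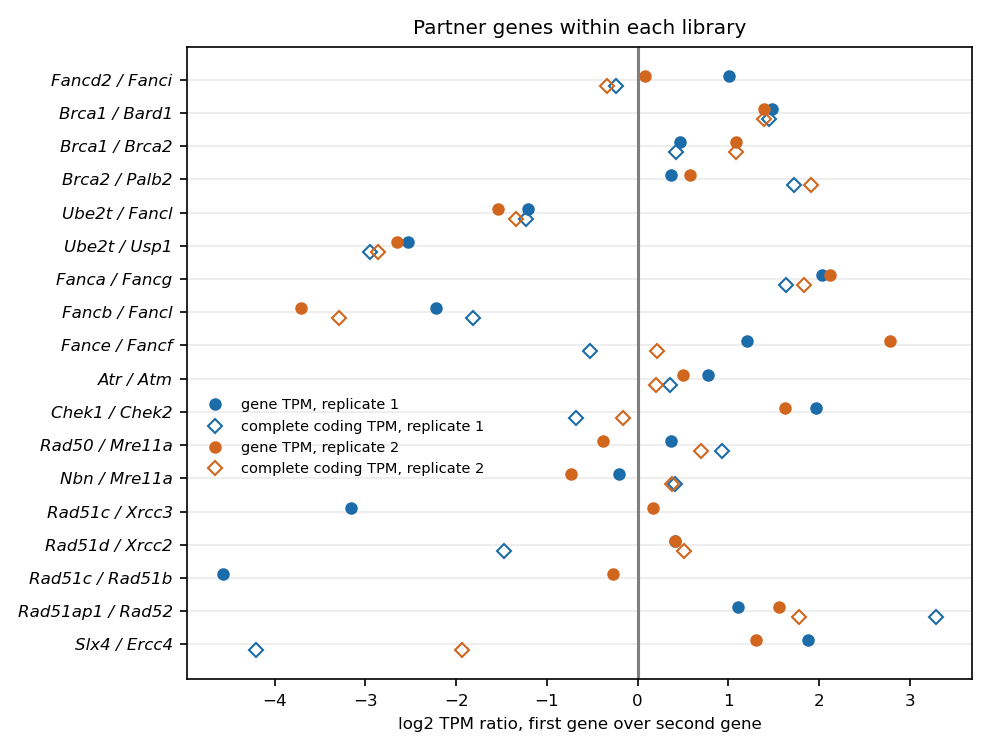
Log2 TPM ratio of each of the 18 partner pairs within each library, from gene TPM (filled circles) and from complete coding transcripts (open diamonds). Brca1 over Bard1 and Ube2t over Usp1 sit together on 1 side of 0 by both measures, while Chek1 over Chek2 and Slx4 over Ercc4 change side. Pairs with Rad51c have no diamonds, since its complete coding TPM is 0.

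Between the libraries, most repair genes differed by less than 1.5-fold. This was read from expected counts scaled to the same effective depth, since the TPM of protein-coding genes as a whole was lower in replicate 2 (a median log2 ratio of -0.22, with 1 TPM added). Of the 35 members 32 lay within that fold. Past it, 2 were higher in replicate 2, where 16.5% of 11901 protein-coding genes with 20 counts were, and 1 was lower, where 17.2% were. Among 9105 genes with 400 counts the shares were 11.1% and 10.9%. The members' median log2 ratio was -0.039, against 0.0084 for all these genes, with 14 members above that and 21 below. The 16 proliferation genes had a median of 0.21.

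The 3 genes past the fold were Rad51c, Fancb and Fance. Rad51c had 33 and 444 counts, a log2 ratio of 2.91 after scaling, at percentile 99.5 of all these genes. Fancb (chromosome X, 164980592 to 164997272), all of whose counts lay on its coding transcript Fancb-203, had 982 and 411 counts, a log2 ratio of -1.42 at percentile 4.93. Its facing neighbour Mospd2 had 539 and 707, a log2 ratio of 0.17. Fance had 544 and 991 counts, a log2 ratio of 0.63. Each library is 1 sample, so these differences carry no replicate check.

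**Figure D5:**
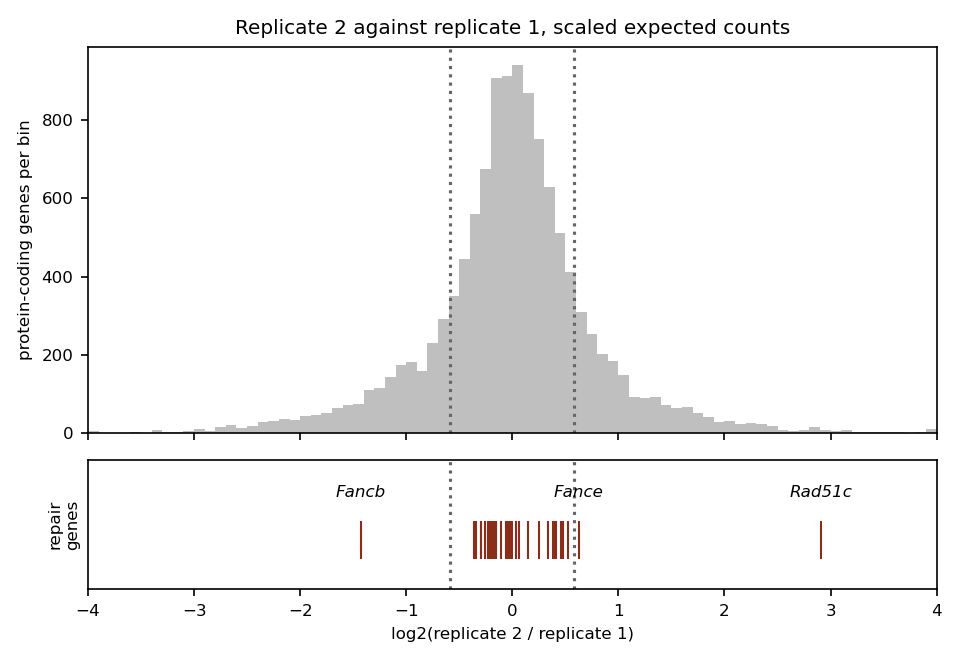
Log2 ratio of replicate 2 over replicate 1 from scaled expected counts, with 11901 protein-coding genes as a histogram above (values beyond 4 placed at the edge) and 1 tick per repair gene below. Dotted lines mark 1.5-fold. The ticks crowd within the lines, and Fancb at -1.42, Fance at 0.63 and Rad51c at 2.91 lie outside.

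Counts and TPM differed in sign for some members. Fancd2 had 2366 and 3476 counts, a log2 ratio of 0.33 after scaling, but a lower TPM in replicate 2, where its effective length in the tables was 1.71 times that in replicate 1. Fanca and Fancg likewise had counts higher by 0.52 and 0.46 and effective lengths 1.36 and 1.41 times as long. Brca1 and Bard1 were higher in replicate 2 by 0.41 and 0.47, and Fanci, Rad54l and Xrcc3 by 0.25, 0.47 and 0.40. The lowest ratios within 1.5-fold were Fancf at -0.36, Fancc at -0.34, Atr at -0.30 and Ube2t at -0.29. Most facing pairs had 1 sign, but not all. The share was not computed over all facing genes, so it is not read as a trait of these pairs. Some ratios were very small, as for Atm and Npat, at -0.054 and -0.077. Both genes were higher in replicate 2 for Brca1 and Nbr1, at 0.41 and 0.16, and Rad54l and Pomgnt1, at 0.47 and 0.78. The same held for the pairs of Fancd2, Rad51b and Xrcc3. Both were lower for the pairs of Palb2, Rad51ap1 and Atm, and for Chek2 and Hscb, at -0.0021 and -1.20. Signs were opposite for Mre11a and Ankrd49, at 0.14 and -1.12, Fancf and Gas2, at -0.36 and 0.36, and Fancb and Mospd2. Tex14, which faces Rad51c, had no counts.

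Some members overlap another gene on the opposite strand, among them Fancl with Vrk2, Fanca with Zfp276, Fanci with Polg, Xrcc3 with Klc1, Fancf with Gas2, Rad54l with Lrrc41 and Mre11a with Ankrd49. The sources used here do not say whether strand was used in counting, so reads of these pairs may not be told apart.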

How the data were processed

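Per the file headers, the deposited tables give for each gene and transcript an expected count (estimated reads without normalization), a TPM, a posterior mean TPM, an effective length and the bounds of a TPM interval (a signal, level not stated). Per the authors' notes beside them, build mm10 and GENCODE M4 were used. The program behind these values, and whether it read strand, is not given in the labels or files used here.

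Gene IDs were matched without version to GENCODE M21 on the same assembly: 42462 of 43346 rows, and 35 of 35 members. For the lists of other genes, 3 symbols were matched by synonym. TPM compared genes. Libraries were compared by expected counts scaled by TMM (edgeR 4.0.16, R 4.3.3), with a pseudocount of 0.5 CPM and genes with 20 counts in all. Counts were rounded to whole numbers only to find the scaling factors. The scaling script was tested on simulated data. Other steps used Python 3.11.15 and pandas 2.3.3. Alternatives were DESeq2 1.42.0 size factors, other pseudocounts, filters and units, and each library alone.

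Members and lists were chosen with earlier results of these data known. The text names all 35 members and the 3 highest and 3 lowest genes of each other list, apart from items that are not reported here. Complete coding transcripts, the filter of 400 counts, facing genes and motifs were chosen after the data were seen. No test was run on 1 group.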

Additional observations from a re-analysis of the deposited data

How the results depend on the processing

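No paired analysis was possible because there is 1 group. Of the members, 21 reached a TPM of 5 in both libraries, and 33 a TPM of 1 by complete coding transcripts. For neither count was the share over all protein-coding genes computed, so neither is read as a trait of the members. With each library alone the number at a TPM of 1 was 34 to 35, the median TPM 6.63 to 7.64, the called pairs 15 to 18 and the gap of cell cycle genes over the other members 0.56 to 0.61. TPM rescaled to nuclear protein-coding genes put the median at 30.5, since these genes hold 25.5% and 20.6% of TPM. Past 1.5-fold between libraries were 7 members in TPM as deposited (also Fancd2, Palb2, Atr and Chek1, all lower in replicate 2) and 5 in rescaled TPM (also Xrcc3 and Rad54l, higher), against 3 in scaled counts. The share of all protein-coding genes was computed for scaled counts only, so the 7 and 5 are not read as a result about the members. In TPM as deposited the median log2 ratio was -0.34 for the members and -0.22 for protein-coding genes with 20 counts. The members' median relative to all genes was -0.047, and between -0.038 and -0.12 under the other scalings. The gap of cell cycle genes over the other members was 0.67 with a pseudocount of 0.1 TPM and 0.66 with rescaled TPM. The leading transcript was shared by 17 of 21 members at a TPM of 5, a share that was not computed over all genes. By complete coding transcripts the mean log2 ratios turned to -0.15 for Fance over Fancf, -0.42 for Chek1 over Chek2, 0.40 for Nbn over Mre11a, -0.48 for Rad51d over Xrcc2 and -3.07 for Slx4 over Ercc4, and the cause was not tested beyond the classes given above. Rad51c rests on 33 counts in replicate 1, and single libraries limit every difference between them.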
